A study of Homo sapiens with 8 samples.

Results

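HCC827 is a human lung adenocarcinoma cell line that depends on an activated epidermal growth factor receptor (EGFR), and the comparison described here set a culture of it grown resistant to the EGFR inhibitor gefitinib against its passage control carried in the solvent DMSO. The 4 HCC827 libraries, 2 per group, were chosen by cell line from the 8 libraries of the series. The control is labelled DMSO and the other culture gefitinib treated, and the protocol says that resistant populations were kept in 3 µM gefitinib. The remaining 4 libraries came from HCC4006, a second lung cancer line with the same pair of cultures. Per the labels, resistant and control cultures were matched to each other by DNA fingerprinting. Resistance and the presence of the drug cannot be told apart in this design. No label states that a group's libraries were grown separately, so p-values measure only the spread between libraries, which may be technical.

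Gefitinib blocks the kinase of EGFR, a receptor that drives growth through the RAS and ERK pathway. Lung cancer cells can escape the block through another receptor that feeds the same pathway, such as MET or an FGF receptor, or through a shift from an epithelial to a mesenchymal state, in which the adhesion protein E-cadherin is lost. The study's title names reprogramming of the cells together with a loop of the growth factor FGF2 on its receptor FGFR1.

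Expression was given as FPKM (fragments mapped to a transcript, scaled by its length and the size of the library). The table held 48405 rows, of which between 17406 and 19086 lay above 0 in a library. The depth is unknown. The 16153 rows above 0 in all 4 libraries formed the main view, and 15917 of them had a mean of at least 0.5 FPKM and were tested on log2(FPKM + 0.5) with limma. Rows listed at 0 throughout a group were set aside, since such a 0 can be a failed estimate. The log2 values correlated across rows at 0.951 between the DMSO libraries, 0.945 between the resistant libraries, and 0.918 to 0.930 between a DMSO and a resistant library. The median log2 change over all rows, resistant minus DMSO, was −0.10, and centring each library on its median moved it by 0.11. The epithelial markers EPCAM (3781, 4000.2, 2744 and 4312 FPKM in DMSO A, DMSO B, resistant A and resistant B) and KRT19 were high, as was the joined row of the lung lineage factor NKX2-1. KRT7 was listed at 0 in all 4 libraries and KRT18 was not found by name. Of 16 immune markers 12 were at 0 in all 4 libraries, and so were 6 of 9 endothelial and 9 of 12 fibroblast markers. Summed over its list, the immune markers held 345 and 285 FPKM in DMSO A and B and 341 and 371 in resistant A and B. The fibroblast markers held 44.1 and 50.9 against 681 and 688. Nearly all of the resistant sums came from 1 member, the joined row of PDGFRA. That row was listed at 0 in both DMSO libraries and was among those set aside. The 1 fibroblast marker in the fit, COL1A1, was lower in both resistant libraries (log2 change −1.55).

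At an adjusted p below 0.05 the resistant culture had 10 rows higher (0.0628% of the rows tested) and 9 lower (0.0565%), 19 together (0.119%). The groups did not overlap in 46.5% of all rows, resistant higher in 20.2% and lower in 26.3%, which are called apart upward and apart downward below. In bulk RNA, fewer cells with a transcript and less of it per cell cannot be told apart. Without an adjustment, 2033 rows had a p below 0.05. All 19 stayed called when either DMSO library was left out, and 0 of the 19 when either resistant library was left out, where 0 rows were called in all and 2728 (without A) or 2537 (without B) had an unadjusted p below 0.05. Without a filter on the mean FPKM, 10 of the 19 stayed called, 6 of the 10 higher rows and 4 of the 9 lower rows. With a lone library in a group, that library is assumed to vary like the other group.

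Among the rises, SLC6A14, which encodes an importer of amino acids at the cell surface (chromosome X, 115567746 to 115592625, hg19), stood at 4.74 FPKM in DMSO A, 2.57 in DMSO B, 400.4 in resistant A and 1453 in resistant B. In what follows, values are given in that order of libraries. The groups did not overlap, and resistant B stood above resistant A. Its log2 change was 7.57 (SE 0.65, adjusted p = 0.0207), and 8.502 without resistant A and 6.64 without resistant B.

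CNTN1, the gene of the neural adhesion protein contactin 1 (chromosome 12, 41302155 to 41464094), had 3.06 and 1.79 FPKM in DMSO against 496 and 215 (log2 change 6.84, SE 0.55, adjusted p = 0.0207). Here resistant A was the higher library, and the change was 6.24 without it and 7.44 without resistant B. SULT1C2, a sulfotransferase gene of drug and hormone metabolism (chromosome 2, 108905094 to 108926371), had near-silent DMSO libraries at 1.07 and 1.64 FPKM and resistant libraries at 186 and 160 (log2 change 6.56, SE 0.47, adjusted p = 0.0207). WFDC2, whose secreted product is made by airway epithelium (chromosome 20, 44098345 to 44110172), was already detectable at 31.4 and 14.1 FPKM in DMSO and reached 851 and 1267 (log2 change 5.59, SE 0.47, adjusted p = 0.0207).

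Another 2 called rises are uncertain as genes. The joined row DSE,RP1-93H18.1, of which DSE encodes an enzyme that builds dermatan sulfate, measured 6.93 and 8.20 FPKM in DMSO and 179 and 101 in resistant libraries (log2 change 4.07, SE 0.47, adjusted p = 0.0396). The call of this joined row was lost with a pseudocount of 5 and without a filter on the mean FPKM. A row named hsa-mir-1184 spanned 154064062 to 154288578 on chromosome X and measured 0.74 and 0.000139 FPKM against 32.5 and 42.7 (log2 change 5.58, SE 0.62, adjusted p = 0.0328). It was not called with all 8 libraries in the fit (adjusted p = 0.148), with a pseudocount of 0.1 (adjusted p = 0.0941), without a filter (0.055), or with a mean of at least 10 FPKM (0.0747). The table held 2 more rows of this name on chromosome X. Both listed 1.54 and 30.3 FPKM in DMSO, against 36.1 and 50.5 in the resistant libraries in the first and 37.5 and 52.5 in the second. RefSeq places the mature miRNA at 3 loci with 1 sequence, and the library kit measures long polyadenylated RNA, so the value is that of fragments over the row and not of the miRNA. The mature sequence is shown because its copies are the same at every locus, with the seed, bases 2 to 8, in capitals.
hsa-miR-1184: cCUGCAGCgacuugauggcuucc

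A further 4 genes rose. SMARCA1, the ATPase gene of an ISWI chromatin remodeller (chromosome X, 128580479 to 128657477), rose from 0.81 and 1.08 FPKM to 89.6 and 45.2 (log2 change 5.48, adjusted p = 0.0269). SDC2, the gene of the heparan sulfate proteoglycan syndecan 2 (chromosome 8, 97505578 to 97624000), had 0.87 and 1.55 FPKM in DMSO and 46.8 and 87.0 under resistance (5.26, adjusted p = 0.0298). HDHD1A, a phosphatase gene (chromosome X, 6966960 to 7066231), rose from 3.49 and 2.49 FPKM to 84.0 and 113 (4.82, adjusted p = 0.0267). SLFN11, known for making cells sensitive to DNA damage (chromosome 17, 33677323 to 33700642), stood at 10.3 and 8.35 FPKM in DMSO and 127 and 151 in resistant cells (3.83, adjusted p = 0.0328). The resistant libraries were close together for SLFN11 and HDHD1A and further apart for SMARCA1 and SDC2. The SDC2 and SLFN11 calls were lost without a filter on the mean FPKM (adjusted p = 0.0537 and 0.0566).

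**Figure D1:**
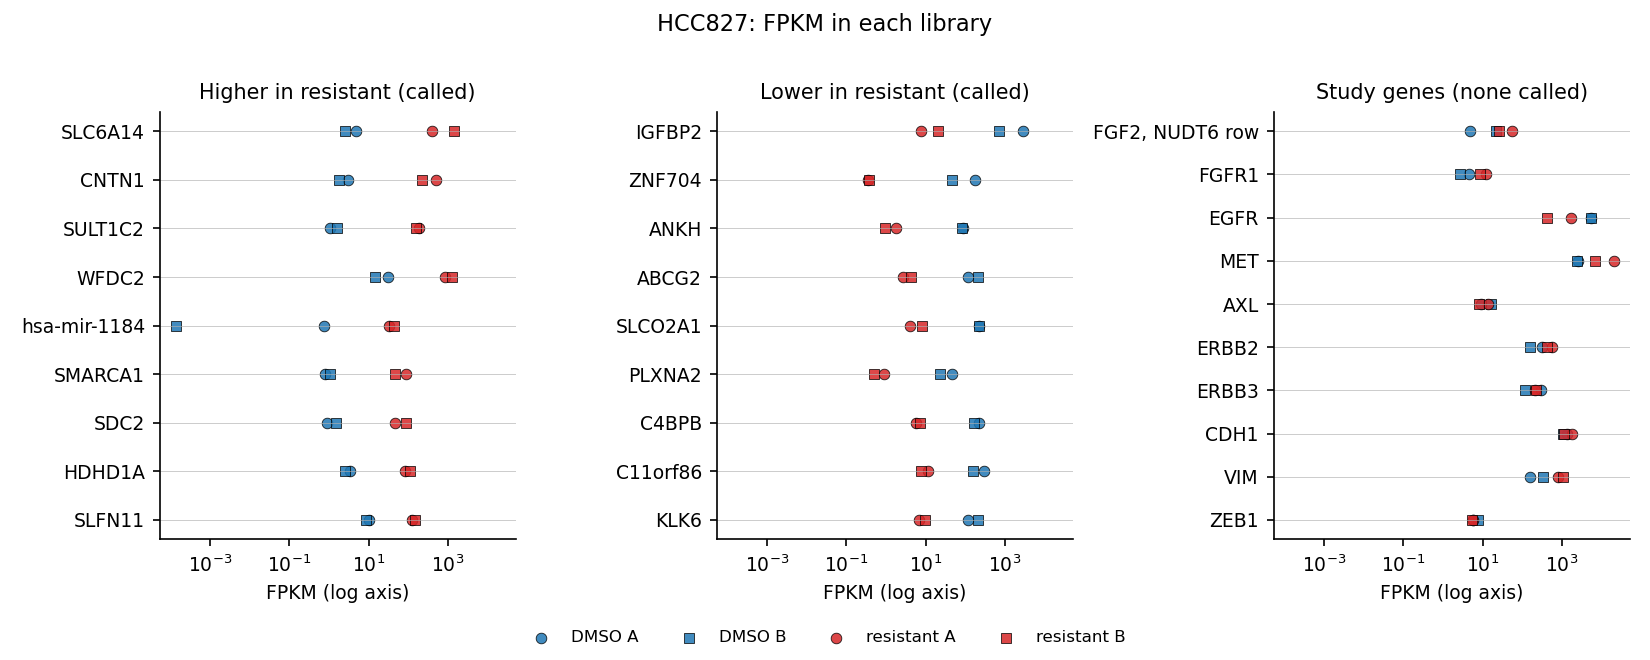
FPKM in each of the 4 HCC827 libraries on a log axis, circles for library A and squares for library B, blue for DMSO and red for resistant, for the 9 single-name genes called higher, the 9 called lower, and the study genes above 0. In the first and second panel the colours do not overlap, while in the third they overlap for AXL, ERBB3, CDH1 and ZEB1.

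The largest fall was that of IGFBP2, which encodes a carrier of insulin-like growth factors (chromosome 2, 217497550 to 217529159). Its DMSO libraries stood at 2882 and 710.1 FPKM and its resistant libraries at 7.78 and 20.5. DMSO A stood well above DMSO B, and both stood far above the resistant libraries. The log2 change was −6.76 (SE 0.72, adjusted p = 0.0298), between −7.77 (without DMSO B) and −5.75 (without DMSO A) with a library left out. It missed the threshold without a trend in the variance (adjusted p = 0.0502).

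The zinc finger gene ZNF704 (chromosome 8, 81540685 to 81787016) fell from 174 and 46.4 FPKM to 0.35 and 0.38 (log2 change −6.71, SE 0.70, adjusted p = 0.0296). ANKH, whose membrane protein controls extracellular pyrophosphate (chromosome 5, 14704912 to 14871887), had DMSO libraries close together at 85.4 and 82.5 FPKM and fell to 1.77 and 0.94 (−5.55, SE 0.503, adjusted p = 0.0207). PLXNA2, a receptor gene for semaphorins (chromosome 1, 208195586 to 208417665), had 47.3 and 23.7 FPKM in DMSO and 0.89 and 0.51 in resistant cells (−4.84, SE 0.58, adjusted p = 0.0433). With a pseudocount of 5 the changes of ZNF704 (−4.16, adjusted p = 0.0747) and PLXNA2 (−2.77, adjusted p = 0.0676) were not called, and PLXNA2 also missed with a pseudocount of 0.1 (0.0526) or a mean of at least 10 FPKM (0.098).

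Membrane transporters were encoded by 2 genes that fell. ABCG2, the gene of the drug exporter BCRP (chromosome 4, 89011415 to 89152474), was high in both DMSO libraries, at 114 and 209 FPKM, and low in the resistant ones, at 2.65 and 4.30 (log2 change −5.31, SE 0.52, adjusted p = 0.0267). SLCO2A1, the prostaglandin carrier gene (chromosome 3, 133651539 to 133771028), had 226 and 220.2 FPKM in DMSO against 4.08 and 8.13 (−5.15, SE 0.47, adjusted p = 0.0207). The SLCO2A1 call was lost with all 8 libraries in the fit.

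ABCG2 and SLCO2A1 were the only called members of the 12 drug transporter genes in the fit, with 0 higher (all rows 0.0628%) and 2 lower (0.0565%). Groups were apart upward in 3 (all rows 20.2%) and downward in 6 (26.3%). The list's median was −0.35 (all rows −0.10). With a library left out it lay between −0.81 (without resistant A) and −0.23 (without resistant B). With a mean of at least 10 FPKM it was −0.037, against −0.10 for all rows. Another exporter gene, ABCC2, measured 167 and 182 FPKM against 5.69 and 14.3 and missed the threshold (−4.19, adjusted p = 0.0521). In the other direction the exporter gene ABCC3 had 730 and 214 FPKM against 2499 and 1352 (2.22), not called. ABCB1, the gene of P-glycoprotein, was low throughout, at 3.04 and 10.6 against 1.29 and 2.91 FPKM.

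The other falls were genes of secreted or extracellular proteins and 1 open reading frame. C4BPB, a chain of the complement inhibitor C4b-binding protein (chromosome 1, 207262186 to 207273338), fell from 225 and 162 FPKM to 5.72 and 7.18 (log2 change −4.79, adjusted p = 0.0207). C11orf86 (chromosome 11, 66742747 to 66744475) had 304 and 158 FPKM in DMSO against 11.2 and 7.82 (−4.48, adjusted p = 0.0308). KLK6, a secreted serine protease gene (chromosome 19, 51461887 to 51472929), fell from 119 and 212 FPKM to 6.83 and 9.60 (−4.21, adjusted p = 0.0366). KLK6 was not called under quantile normalization (−4.14, adjusted p = 0.0565) or with a pseudocount of 5 (−3.64, adjusted p = 0.0524). Of all 9 rows called lower, 4 stayed called without a filter on the mean FPKM.

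Of the 18 called rows with a single name, 8 had exactly 1 entry in the RefSeq promoter table (build GRCh38.p14), 5 of them genes that rose. The 250 bases before the start were searched on both strands for 3 motifs, and for comparison all 34788 distinct promoter windows of that length were searched too. The TATA box, TATAAA, where general transcription factors assemble, was in 10.8% of all windows. The AP-1 motif TGANTCA, bound by the factors at the end of the ERK pathway, was in 6.59% of them. The E-box that ZEB1 and SNAI factors bind, CAGGTG, was in 17.5%. The TATA box letters were in 0 of the 8. The AP-1 letters were in SLC6A14 alone, beginning 216 bases before the start. The E-box letters were in WFDC2, 17 bases before, on the opposite strand, and in KLK6, 222 bases before. A match is a match of letters only. The windows of these 3 genes are shown because they are the called genes with a match, 5′ to 3′ on the gene's strand, with the match in capitals. They lie at chrX:116436356-116436605, plus strand, at chr20:45469503-45469752, plus strand, and at chr19:50969592-50969841, minus strand, in GRCh38.p14, a different build from the hg19 positions of the rows.
SLC6A14: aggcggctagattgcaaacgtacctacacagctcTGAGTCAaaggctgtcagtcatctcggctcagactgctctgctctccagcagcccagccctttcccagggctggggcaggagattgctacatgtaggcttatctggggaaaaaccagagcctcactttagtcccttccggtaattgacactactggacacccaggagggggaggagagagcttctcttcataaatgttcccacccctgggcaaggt
WFDC2: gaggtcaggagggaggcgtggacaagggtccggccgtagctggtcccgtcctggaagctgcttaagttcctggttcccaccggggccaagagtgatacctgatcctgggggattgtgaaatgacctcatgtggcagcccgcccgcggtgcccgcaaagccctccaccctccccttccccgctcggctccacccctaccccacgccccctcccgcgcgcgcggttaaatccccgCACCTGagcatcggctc
KLK6: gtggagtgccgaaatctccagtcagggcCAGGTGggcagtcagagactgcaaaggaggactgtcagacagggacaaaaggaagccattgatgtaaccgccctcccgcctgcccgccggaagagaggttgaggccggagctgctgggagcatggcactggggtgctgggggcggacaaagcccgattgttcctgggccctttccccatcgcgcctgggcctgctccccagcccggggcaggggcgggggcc

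Large differences with groups apart but short of the test included genes of secretory epithelium. PIGR, the carrier gene of secreted antibodies, measured 16.5 and 0.80 FPKM in DMSO and 706 and 228 in resistant libraries (log2 change 6.42, adjusted p = 0.108). The complement gene C3 measured 55.5 and 3.04 against 1050.3 and 452 (5.61, adjusted p = 0.143). In both the DMSO libraries differed from each other more than 10-fold. DHRS3, a retinal reductase gene, came closest of the higher genes to the threshold, with 19.0 and 4.02 against 393 and 330 (5.26, adjusted p = 0.0543). Of the receptor genes, KIT measured 37.2 and 2.65 against 382 and 243 (4.81, adjusted p = 0.158). On the other side stood VIL1, the villin gene of brush borders (125 and 21.6 against 0.83 and 1.497, −5.01, adjusted p = 0.0977), the growth factor gene PDGFB (−4.01, adjusted p = 0.0899) and the guanine exchange factor gene DOCK11 (−3.91, adjusted p = 0.0574).

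The drug's target was lower in level without being called. EGFR (chromosome 7, 55086713 to 55324313) had 5462 and 5246 FPKM in DMSO and 1639 and 424 in resistant cells. The DMSO libraries nearly coincided while the resistant libraries lay apart, and the groups did not overlap. The log2 change was −2.68 (SE 0.62, adjusted p = 0.18), −1.71 without resistant B and −3.66 without resistant A.

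MET, the hepatocyte growth factor receptor gene (chromosome 7, 116312247 to 116438440), had 2567 and 2391 FPKM in DMSO and 19878 and 6628 in resistant cells. Again the groups did not overlap, and the resistant libraries again differed from each other. The log2 change was 2.21 (SE 0.59, adjusted p = 0.218), 1.42 without resistant A and 3.00 without resistant B. HGF, the gene of its ligand, was listed at 0 in all 4 libraries.

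Within the EGFR family and its ligands, 12 genes were in the fit, 0 were called, and the median change was 0.30, which was 0.02 without DMSO B. Groups did not overlap in 6 genes higher (all rows 20.2%) and 3 lower (26.3%). ERBB2, the gene of EGFR's partner HER2, measured 308 and 154 against 562 and 426 FPKM (log2 change 1.16, adjusted p = 0.328). Of the ligand genes, AREG had 451 and 585 FPKM against 681 and 2243 (1.26), highest in resistant B. HBEGF went the other way at 15.95 and 59.0 against 4.52 and 5.62 (−2.50). ERRFI1, the gene of an EGFR inhibitor, was apart downward at 761 and 1105 against 401 and 654 (−0.84). LRIG1, another inhibitor gene, was apart upward at 10.3 and 14.5 against 29.5 and 23.7 (1.09). ERBB3, the gene of the partner HER3, overlapped between groups (0.20).

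The rows of the study's FGF genes were apart upward in HCC827, as were 20.2% of all rows, and were not called. FGFR1 was low in every library. FGFR1 (chromosome 8, 38268655 to 38326352) measured 4.44 and 2.65 FPKM in DMSO and 12.2 and 8.61 in resistant libraries (log2 change 1.45, SE 0.54, adjusted p = 0.339). The joined row of FGF2 (chromosome 4, 123747862 to 123844123) had 4.83 and 21.96 FPKM against 56.6 and 25.97 (1.83, SE 0.76, adjusted p = 0.382). Its change was 0.79 without DMSO A and 2.87 without DMSO B. NUDT6 lies across from FGF2 there, and the kit does not mark strand, so the value cannot be assigned to FGF2 alone. FGF9, another ligand gene, measured 31.6 and 33.5 against 5.95 and 3.08 (−2.78, adjusted p = 0.115), and its groups were apart downward. FGFRL1, the gene of a decoy receptor, was apart upward at 62.5 and 56.0 against 110 and 101 (0.83). FGFR4 overlapped between groups. FGFR3 was listed at 0 in both resistant libraries (44.9 and 21.9 in DMSO), and FGF13 at 0 in both DMSO libraries (182 and 131 in resistant).

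ERK output and feedback genes, which cells switch on when the RAS and ERK pathway is active, had 0 of 22 members called and a median of 0.24 (0.03 without DMSO B, 0.11 without resistant A and 0.47 without DMSO A). Groups were apart upward in 4 (all rows 20.2%) and downward in 4 (26.3%), near or below those shares. The feedback phosphatase gene DUSP6 measured 504 and 371 FPKM against 925 and 1089 (log2 change 1.21, adjusted p = 0.245). DUSP5, of the same family, had 160 and 233 against 334 and 498 (1.08). The early response genes EGR1 (11.2 and 40.9 against 61.5 and 654) and IER3 (441 and 325 against 786 and 1786) were also apart upward, with resistant B the highest library in each. SPHK1, the sphingosine kinase gene, was apart downward at 40.6 and 31.5 against 6.08 and 16.5 (−1.78), as was DUSP4 at 324 and 174 against 165 and 75.5 (−1.08).

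Epithelial identity genes gave no call in resistant HCC827. CDH1, the E-cadherin gene (chromosome 16, 68771127 to 68869444), measured 1325 and 1081 FPKM in DMSO and 1804 and 1132 in resistant libraries, which overlapped (log2 change 0.26, SE 0.39, adjusted p = 0.811). Of adherens and desmosome junction genes 0 of 15 were called, with a median of −0.18 (−0.34 without DMSO B). Of tight junction and polarity genes 0 of 16 were called, with a median of 0.10 (−0.13 without DMSO B, −0.05 without resistant A and 0.27 without DMSO A). Of epithelial transcription and splicing regulators 0 of 15 were called, with 8 positive and 7 negative changes and a median of 0.08 (−0.36 without DMSO B, −0.03 without resistant A, 0.02 without DMSO A and 0.16 without resistant B). The desmosome gene DSP measured 200.5 and 198 against 71.8 and 71.9 (−1.46, adjusted p = 0.181), with libraries close together in each group. Among the 15 regulators the groups were apart downward in 4 (all rows 26.3%) and upward in 1 (20.2%), near or below those shares. Those downward were OVOL1, GRHL1, KLF4 and GRHL2 (−2.13, −1.89, −1.48 and −1.27). The 1 upward was FOXA1 (152 and 102 against 193 and 197, 0.64), and none was called. In the other direction the nectin 4 gene (row PVRL4) measured 25.3 and 5.997 against 68.6 and 45.1 (2.12, adjusted p = 0.286).

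On the mesenchymal side 0 of 13 genes in the fit were called, with 7 positive and 6 negative changes and a median of 0.06 (0.61 without DMSO A, −0.19 without DMSO B, 0.12 without resistant A, −0.01 without resistant B and −0.06 with a pseudocount of 1). VIM, the vimentin gene (chromosome 10, 17270257 to 17279592), had 155 and 341 FPKM in DMSO and 800.4 and 1071 in resistant cells (log2 change 2.01, SE 0.45, adjusted p = 0.172), and 1.44 without DMSO A. The fibrillin gene FBN1 measured 1.16 and 1.79 against 15.1 and 12.5 (2.87, adjusted p = 0.114). COL1A1, a collagen gene, went the other way at 42.6 and 50.9 against 13.4 and 18.1 (−1.55, adjusted p = 0.245). CDH2, the N-cadherin gene, was listed at 0 in all 4 libraries. ZEB1, the gene of a repressor of CDH1, overlapped at 5.60 and 7.63 against 5.72 and 5.47 (−0.21), and ZEB2 was listed at 0, 0.93, 2.60 and 1.004 FPKM in DMSO A, DMSO B, resistant A and resistant B. AXL, a kinase gene often tied to the mesenchymal state, overlapped too (−0.18).

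The same contrast in HCC4006 allowed a test of the difference itself, the change in HCC827 minus that in HCC4006, over 14642 rows above 0 in all 8 libraries. The difference was called in 212 rows (1.45%), 142 with the higher change in HCC827 (0.97%) and 70 with the lower (0.478%). That count was 1193 without HCC4006 DMSO B and from 12 to 89 with any other library left out. Among adherens and desmosome junction genes 5 of 13 were called, and among tight junction and polarity genes 7 of 13, all with the higher change in HCC827. For CDH1 the log2 changes were 0.26 in HCC827 and −8.36 in HCC4006 (difference 8.61, SE 0.49, adjusted p = 0.000326). For RAB25, a trafficking gene of epithelia, they were 0.92 and −8.04 (difference 8.95, adjusted p = 0.000359), and for AP1M2, a sorting adaptor gene, 1.23 and −7.55 (8.78, adjusted p = 0.000255). ZEB1 differed the other way, −0.21 against 3.29 (−3.49, SE 0.61, adjusted p = 0.0409). ERBB3 differed by 4.11 (SE 0.78, adjusted p = 0.0484).

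Of the 19 rows called in HCC827, 12 lay above 0 in all 8 libraries and 9 of those differed between the lines (all rows 1.45%). These rows were picked for their change in HCC827, and the test of the difference uses the same HCC827 libraries. The count is therefore no separate support for the calls. WFDC2 rose in HCC827 (5.59) and had a change of −6.23 in HCC4006, a difference of 11.82 (SE 0.67, adjusted p = 0.000326). ABCG2 fell in HCC827 (−5.31) and had 1.76 in HCC4006 (difference −7.07, SE 0.64, adjusted p = 0.00415). SMARCA1, HDHD1A, SLFN11, ZNF704 and ANKH had changes between −0.53 and 0.50 in HCC4006, and PLXNA2 had 1.08. The joined DSE row differed by 4.10 (adjusted p = 0.0186). The test did not call a difference for the hsa-mir-1184 row (2.49, adjusted p = 0.55), for SLCO2A1, with −5.15 in HCC827 and −4.51 in HCC4006 (difference −0.65, SE 1.22, adjusted p = 0.807), or for IGFBP2, with −6.76 and −3.80 (difference −2.96, SE 0.97, adjusted p = 0.164). For EGFR (−2.68 against −0.15, adjusted p = 0.156) and MET (2.21 against 0.21, adjusted p = 0.174) the difference was not called either, nor for FGFR1 (1.45 against 3.32, adjusted p = 0.252) and VIM (2.01 against 1.82, adjusted p = 0.893).

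**Figure D2:**
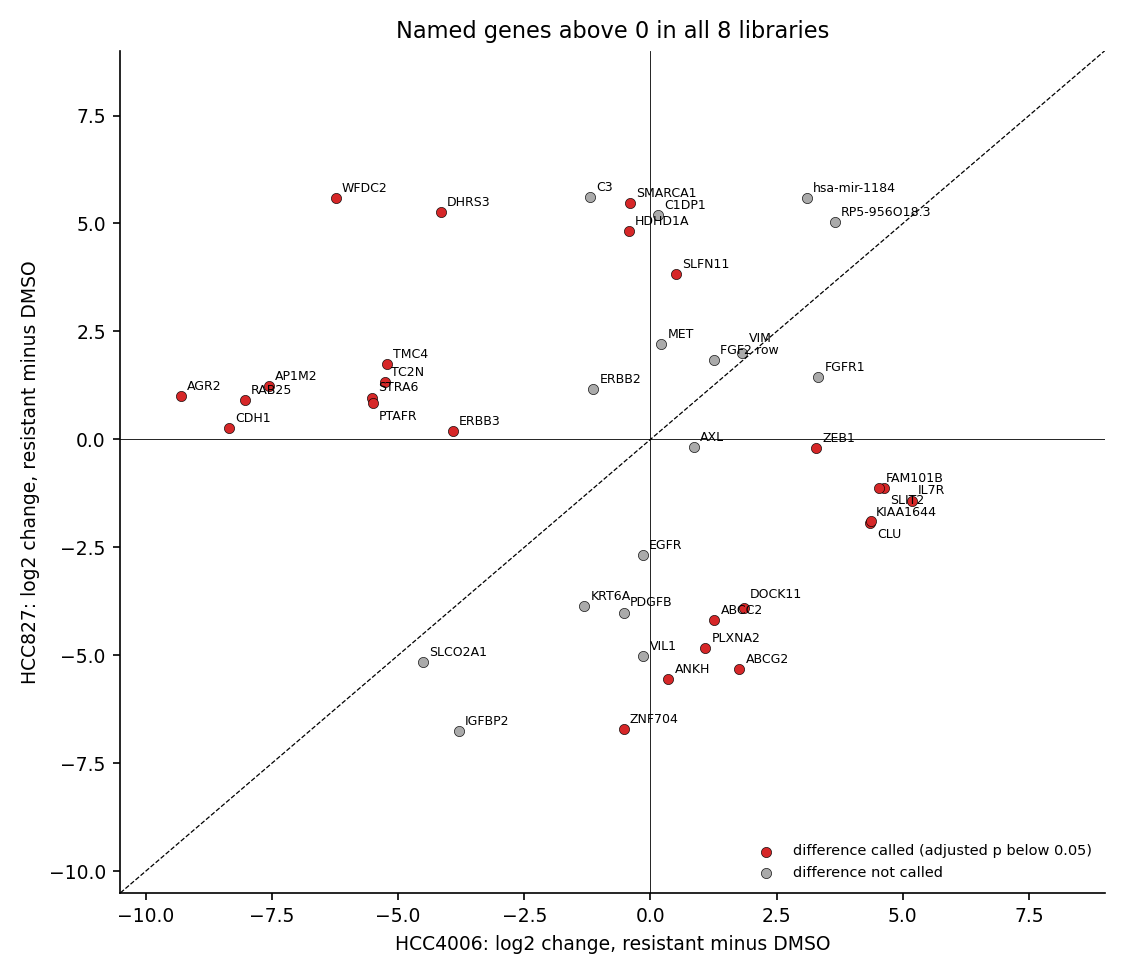
Log2 change, resistant minus DMSO, in HCC4006 (x axis) and HCC827 (y axis) for the named genes above 0 in all 8 libraries, red where the difference between the lines was called and grey where it was not. CDH1, RAB25, AP1M2 and AGR2 lie far left near 0 on the y axis, ABCG2, ANKH and PLXNA2 lie low near or right of 0, and SLCO2A1 lies close to the dashed line of equal change.

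Lung lineage genes held the called rise of WFDC2, 1 of 15 members in the fit, with 0 called lower and a median of 0.22 (0.10 without resistant B, 0.38 without resistant A, 0.44 without DMSO B and 0.64 without DMSO A). Of the 15, 8 had positive and 7 negative changes, and the median was −0.09 over the members above 0 in all 8 libraries and 0.09 with a mean of at least 10 FPKM. Groups were apart upward in 5, WFDC2 included (all rows 20.2%), and downward in 0 (26.3%). The surfactant gene SFTPB measured 1.002 and 9.37 FPKM against 88.1 and 68.5 (log2 change 4.34, adjusted p = 0.128). The mucin gene MUC5B had 134 and 16.6 against 217 and 326 (2.48). The aspartic protease gene NAPSA had 829 and 540 against 911 and 2656 (1.22), with resistant B far above the rest. AGR2, of a secreted protein disulfide isomerase, had 1414 and 657 against 1809.5 and 2084 (1.01). NKX2-1, whose row also names SFTA3, overlapped at 443 and 535 against 352 and 632 (−0.05).

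Squamous genes, which mark stratified epithelium, had 0 of 9 members called, 8 negative changes and a median of −1.67, which moved between −3.06 (without resistant B) and −0.79 (without resistant A). Groups were apart downward in 5 (all rows 26.3%). The calcium-binding protein gene S100A2 measured 3654 and 1533 FPKM against 165 and 609 (log2 change −2.90, adjusted p = 0.18), and the envelope gene SPRR3 128 and 37.7 against 4.42 and 19.9 (−2.80). KRT6A, a keratin gene, measured 49.4 and 1.12 against 0.043 and 0.21 (−3.86, adjusted p = 0.328). DMSO A was above DMSO B in 8 of the 9, and resistant A was below resistant B in 7.

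Stress response genes of the unfolded protein, ATF4 and heat shock pathways had 0 of 24 members called and a median of 0.27 (0.52 without resistant B). Groups were apart upward in 10 (all rows 20.2%) and downward in 2 (26.3%). DDIT3, the gene of the factor CHOP, measured 47.0 and 86.2 FPKM against 370 and 205 (log2 change 2.10, adjusted p = 0.166). CHAC1, a glutathione-cleaving enzyme gene, had 12.9 and 16.6 against 99.4 and 31.3 (1.89). PHGDH, of serine synthesis, had 148 and 187 against 748 and 353 (1.62). In each of these, resistant A was the highest library. ATF3 was apart downward at 58.9 and 88.5 against 32.2 and 28.0 (−1.25).

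Antigen presentation genes of the MHC class I pathway, 11 in the fit, had 0 called and a median of 0.50, which was 1.10 without DMSO A and 0.07 without DMSO B. HLA-F measured 393 and 79.0 FPKM against 674 and 578 (log2 change 1.82). PSMB10, of the immunoproteasome, had 196 and 128 against 297 and 534 (1.33). All 11 were higher in DMSO A than in DMSO B. NLRC5, the gene of a class I regulator, was apart downward (82.9 and 54.2 against 42.8 and 27.9, −0.95).

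Genes of the interferon response, a defence against viruses, had 0 of 25 members called, 21 negative changes and a median of −0.79. The value rested on 1 library. All 25 members were higher in DMSO A than in DMSO B, and without DMSO A the median was 0.20, without DMSO B −1.43. OAS2 measured 439 and 40.2 FPKM in DMSO and 16.1 and 29.6 in resistant libraries (log2 change −2.58, adjusted p = 0.354). DMSO A stood far above the other libraries.

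Cell cycle genes likewise had 0 of 28 members called, with 25 negative changes and a median of −0.77. All 28 were lower in resistant A than in resistant B. Without resistant A the median was −0.03, and without resistant B −1.40. AURKB, a mitotic kinase gene, measured 524 and 505 FPKM in DMSO and 76.3 and 369 in resistant libraries (log2 change −1.61, adjusted p = 0.384), and the proliferation marker MKI67 379.7 and 286 against 92.5 and 214 (−1.22, adjusted p = 0.345). The part of resistant A alone in this difference was not tested beyond these values.

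Integrin, laminin and matrix genes had 0 of 20 members called and a median of −0.50, with groups apart downward in 9 (all rows 26.3%) and upward in 2. That median was −0.79 without resistant A and −0.33 without DMSO A. THBS1, the thrombospondin 1 gene, measured 293 and 657 FPKM against 69.8 and 83.4 (log2 change −2.52, adjusted p = 0.111), and the collagen IV gene COL4A2 167 and 175 against 96.9 and 54.2 (−1.23). Targets and factors of the YAP and TEAD growth pathway had 0 of 15 called and a median of −0.38. Groups were apart downward in 7 (all rows 26.3%) and upward in 0 (20.2%). The median was −0.73 without DMSO A and −0.28 without resistant B. YAP1 itself measured 567 and 597 against 373 and 228 (−0.99, adjusted p = 0.334), and its target AMOTL1 73.7 and 66.6 against 29.6 and 18.0 (−1.58).

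Among NRF2 and xenobiotic genes 0 of 17 were called (median −0.65, and −0.03 without resistant A). HMOX1, the heme oxygenase gene, measured 71.2 and 71.3 FPKM against 26.2 and 27.2 (log2 change −1.40, adjusted p = 0.245), with close agreement inside each group. CYP1A1, an enzyme of drug oxidation, was apart upward at 56.9 and 37.5 against 95.5 and 225 (1.65). In the inflammatory list 0 of 15 were called, with a median of 0.19 (1.21 without DMSO A and −0.73 without DMSO B). Groups were apart upward in 3 (all rows 20.2%) and downward in 1 (26.3%), near or below those shares. Of the 15, 14 were higher in DMSO A than in DMSO B. IL1A, the interleukin 1 alpha gene, measured 43.0 and 7.69 against 520.3 and 272 (4.32, adjusted p = 0.108) and PTGS2, the cyclooxygenase 2 gene, 81.4 and 29.4 against 611 and 221 (2.89, adjusted p = 0.166).

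Chromatin regulator genes had 0 of 19 called. SMARCA2, an ATPase gene of the SWI/SNF remodeller, measured 1.20 and 0.80 FPKM in DMSO and 38.9 and 16.3 in resistant libraries (log2 change 4.12, SE 0.60, adjusted p = 0.0804), and its change differed from that in HCC4006 (0.23, difference 3.89, adjusted p = 0.0336). DNMT3B, a DNA methyltransferase gene, was apart downward at 49.3 and 30.4 against 13.6 and 16.8 (−1.33). In the TGF-beta and BMP list, with 0 of 20 called, the decoy receptor gene BAMBI measured 91.5 and 111 against 15.2 and 24.1 (−2.37, adjusted p = 0.115) and differed from HCC4006 (difference −3.35, adjusted p = 0.0399). Of BCL2 family genes, 0 of 18 called, the cell death gene BIK measured 113 and 74.7 against 246 and 430.1 (1.82, adjusted p = 0.178) and differed as well (4.68, adjusted p = 0.0185).

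**Figure D3:**
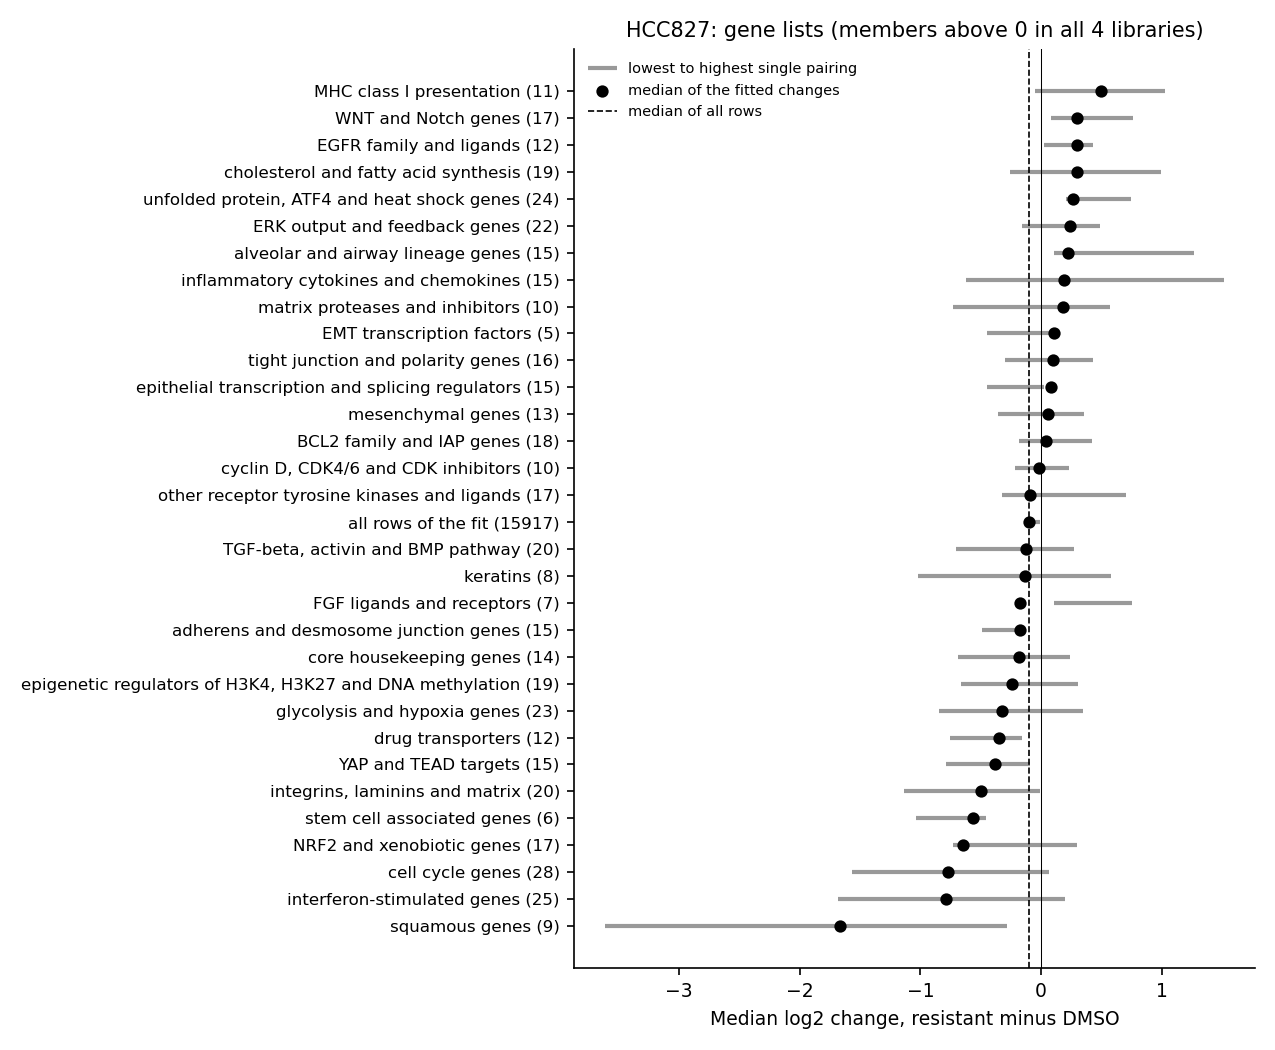
Median log2 change, resistant minus DMSO, of each gene list with at least 5 members above 0 in all 4 libraries (number in brackets), with a grey line from the lowest to the highest median over the 4 pairings of a resistant with a DMSO library. Squamous, interferon-stimulated and cell cycle genes have the lowest medians and wide lines, and MHC class I presentation has the highest.

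Some chromosome stretches had medians away from that of all rows. In 306 windows of 10 Mb with at least 10 rows, the median log2 change had quartiles of −0.22 and −0.01. The lowest window was the first 10 Mb of chromosome 17, at −0.95, where 123 of 141 rows were negative. Its groups were apart downward in 101 rows (all rows 26.3%) and upward in 7 (20.2%), and the same shares apply to the next windows. The next 10 Mb of chromosome 17 had −0.62 (89 rows, 44 apart downward and 11 upward). The stretch from 60 to 70 Mb on chromosome 7 had −0.88 (47 rows, 31 apart downward and 1 upward). The first chromosome 17 window lay between −1.01 and −0.81 under every alternative tried. The second had −0.95 without DMSO B and −0.99 with a mean of at least 10 FPKM. It had −0.45 without resistant A and −0.42 with a pseudocount of 5. The window of chromosome 7 had −0.59 with a pseudocount of 5. No row of these 3 windows was called.

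In HCC4006 the rows of these windows that lay above 0 in all 8 libraries had medians of −0.16, −0.08 and −0.13, against −0.94, −0.89 and −0.54 for the same rows in HCC827. On chromosome 17 the genes of largest change were TRPV3, an ion channel gene (13.7 and 11.2 FPKM against 1.11 and 0.75, −3.18), YBX2 (84.0 and 111 against 8.78 and 15.6, −2.99) and the sugar kinase gene SHPK (195 and 208 against 33.1 and 33.4, −2.58, adjusted p = 0.0711). In the next window they were the centromere gene CENPV (199.9 and 319 against 17.4 and 32.7, −3.37, adjusted p = 0.0678), NT5M (−2.70) and SMCR8 (−2.58). On chromosome 7 they were the zinc finger genes ZNF273 (−3.10, adjusted p = 0.066), ZNF138 (371 and 340 against 33.5 and 52.9, −3.06, adjusted p = 0.0521) and ZNF92 (−2.52). The change differed from that in HCC4006 for CENPV (adjusted p = 0.0203), NT5M (0.0409), ZNF273 (0.0417) and ZNF138 (0.0491).

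The highest windows were the first 10 Mb of chromosome X at 0.57 (39 rows, 20 apart upward, against 20.2% of all rows, and 7 downward, 0.36 with a pseudocount of 5), the end of chromosome 22 from 50 Mb at 0.51 (29 rows, 0.24 without resistant A, 0.26 without DMSO B) and the mitochondrial genome at 0.48 (23 rows). The X window held the called rise of HDHD1A. It also held KAL1, an extracellular matrix protein gene, at 12.2 and 24.04 FPKM against 3.59 and 1.62 (−2.58), and the cytokine receptor gene CSF2RA (2.29). On chromosome 22 the lysosomal enzyme gene ARSA measured 18.6 and 11.02 against 79.4 and 50.8 (2.11). The mitochondrial median was 0.10 without DMSO A, and its rows had 1.17 in HCC4006 against 0.35 for the same rows in HCC827.

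**Figure D4:**
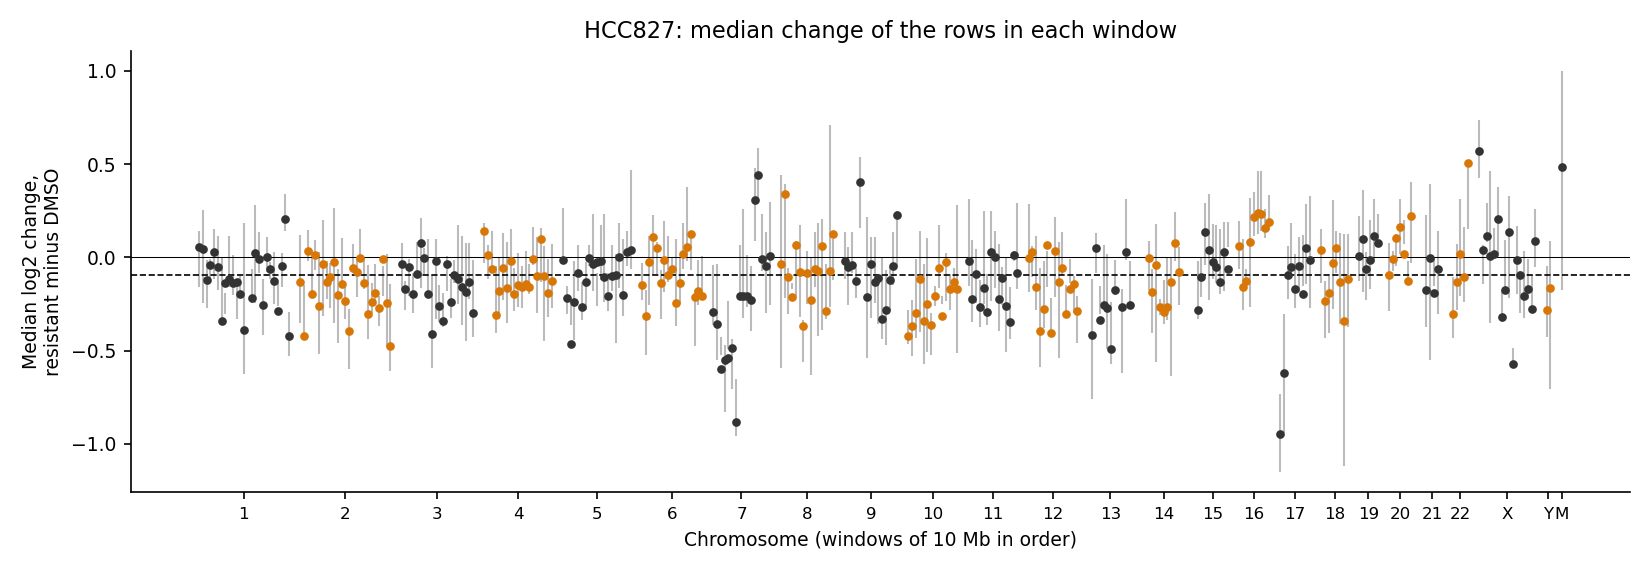
Median log2 change, resistant minus DMSO, of the rows in each 10 Mb window, in chromosome order, with a grey line from the lowest to the highest median over the 4 pairings of libraries and a dashed line at the median of all rows (−0.10). Chromosome 17 starts with the lowest window (−0.95), and chromosome 7 has 5 low windows in a row.

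EGFR and MET lie in runs of windows with opposite signs on chromosome 7, which were chosen for description after their values were seen. From 20 to 70 Mb the 5 windows had medians of −0.60, −0.55, −0.54, −0.48 and −0.88, and EGFR is in the fourth. From 110 to 130 Mb the medians were 0.31 and 0.44, with MET in the first. Below 20 Mb they were −0.29 and −0.36, between 70 and 110 Mb from −0.23 to −0.21, and beyond 130 Mb from −0.04 to 0.01.

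Within 5 Mb of EGFR, 22 of 41 rows were apart downward (all rows 26.3%) and 1 upward (20.2%), with a median of −0.48. LANCL2, 346 kb away, measured 2318 and 4093 FPKM against 621 and 728 (log2 change −2.19, adjusted p = 0.115), and VOPP1, at 417 kb, 4706 and 5975 against 1928 and 1316 (−1.73, adjusted p = 0.184). The joined row of SEC61G, the gene of a protein translocation channel subunit, measured 44803 and 39392 against 13476 and 12678 (−1.68, adjusted p = 0.301). The chaperonin gene CCT6A, 1033 kb away, measured 12443 and 15776 against 5737 and 6738 (−1.17).

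Around MET the pattern was less dense. Of 21 rows within 5 Mb, 8 were apart upward (all rows 20.2%) and 1 downward (26.3%), with a median of 0.37. CAV1, the caveolin gene 147 kb away, overlapped at 1201 and 4273 against 1296 and 2097 (−0.46). FAM3C, at 4677 kb, measured 833 and 797 against 3646 and 2409 (1.86, adjusted p = 0.143), and DOCK4, 4946 kb on the other side, 5.49 and 1.79 against 45.5 and 34.9 (3.44, adjusted p = 0.108). CAPZA2, next to MET, was listed at 0 in both DMSO libraries and at 7718 and 6161 in the resistant libraries. Such a 0 can be a failed estimate, so the CAPZA2 row was set aside and no rise is read from it. These neighbours were chosen after their values were seen, and copy number was not analysed here.

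**Figure D5:**
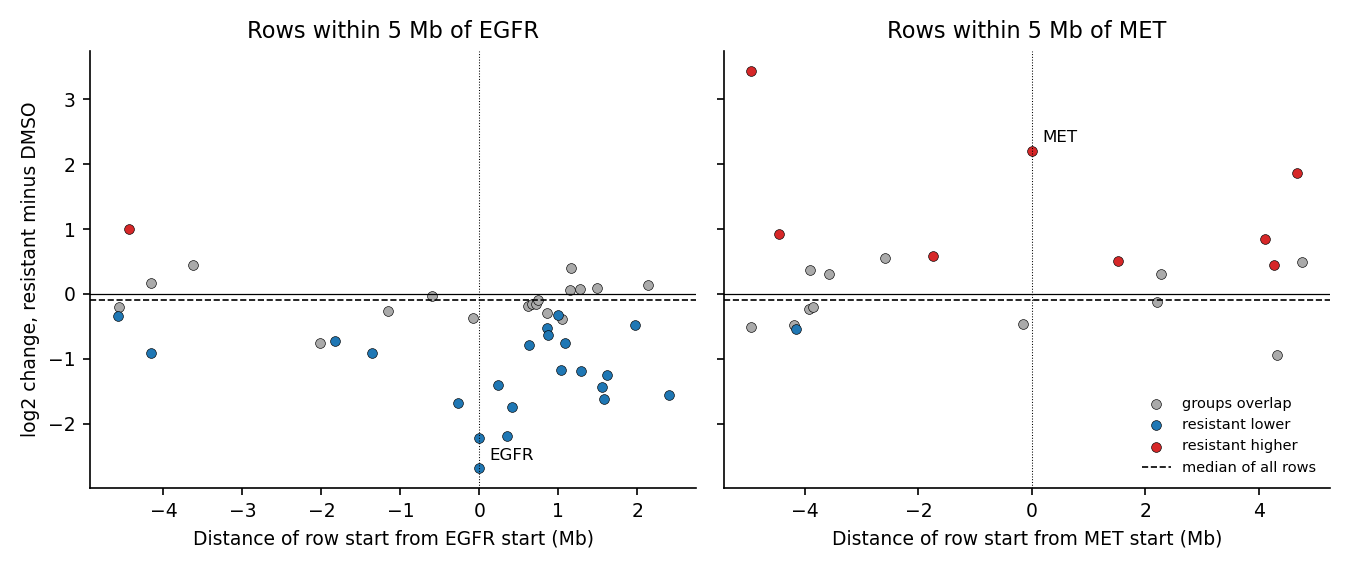
Log2 change, resistant minus DMSO, of each row against the distance of its start from that of EGFR (left) or MET (right), blue where both resistant libraries were below both DMSO libraries, red where both were above, grey where the groups overlapped. Of 17 rows within 1 Mb of EGFR 10 are blue and 0 red, and MET stands at 2.21 with CAV1 beside it below 0.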

How the data were processed

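RNA of 8 libraries was purified with a miRNeasy kit and made into TruSeq RNA v2 libraries, which do not mark strand, per the labels' protocols. The authors deposited gene-level FPKM, 1 table per cell line. TopHat 1.4.1, Cufflinks 1.3.0, Cuffdiff and build hg19 are named per the submitters' processing notes, and the annotation is not given in the sources used here. Medians of rows above 0 were 55.5 to 59.0 FPKM, so a further scaling by the authors is possible. FPKM hold no read totals, low values showed no whole-read steps, and no interval or floor can be given. Column letters A and B were not tied to the labels' replicate numbers. There were 0 further per-sample columns. Joined names made up 928 rows of the fit, and 7935 rows shared a locus with another.

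Values were tested as log2(FPKM + 0.5) with limma 3.58.1 (lmFit, eBayes with a trend, R 4.3.3) and Benjamini-Hochberg adjustment over every fitted row, and rows were called at an adjusted p below 0.05. The script was checked on simulated data. The change in HCC827 was set against that in HCC4006 by an interaction term fitted to 8 libraries. Groups are "apart" where both resistant libraries lie on 1 side of both DMSO libraries. The 35 lists (704 memberships) were described by counts and medians with no test. Genes named were, among single-name rows, the 15 largest called changes per direction, filled with uncalled ones of mean FPKM at least 10, the study's genes, up to 6 members per list, 6 rows per direction at 0 in the other group, 10 per sign of the difference, and 3 per named window (3 highest, 3 lowest). The members and lists were chosen with earlier results of these data known. Alternatives changed the pseudocount, filter, scaling, variance model, libraries and block, and those of the windows were added after seeing the data.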

Additional observations from a re-analysis of the deposited data

Results flagged for a closer look

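Each gene here had a change, resistant minus DMSO, that differed between HCC827 and HCC4006 by the interaction test of limma at an adjusted p below 0.05. Values are the log2 change in HCC827 minus that in HCC4006. None of the differences was weighed for a cause.

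Among genes called in HCC827, or just short of it, the change was higher in HCC827 for WFDC2 (11.82), DHRS3 (9.42), SMARCA1 (5.88), HDHD1A (5.25) and SLFN11 (3.33). It was lower for ABCG2 (−7.07), ZNF704 (−6.18), PLXNA2 (−5.92), ANKH (−5.90), DOCK11 (−5.76) and ABCC2 (−5.46). In HCC4006 the changes of WFDC2 and DHRS3 were −6.23 and −4.16, opposite in sign to those in HCC827.

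For the other genes the change in HCC4006 was larger in size than that in HCC827, and opposite in sign. The epithelial genes CDH1 (8.61), RAB25 (8.95) and AP1M2 (8.78), the secreted protein gene AGR2 (10.32) and the receptor partner ERBB3 (4.11) had differences above 0, as did TMC4 (6.97), TC2N (6.59), STRA6 (6.48) and PTAFR (6.34). The repressor gene ZEB1 (−3.49), the cytokine receptor gene IL7R (−6.59), KIAA1644 (−6.27), the chaperone gene CLU (−6.27), the guidance gene SLIT2 (−5.75) and FAM101B (−5.66) had differences below 0. In HCC827 itself the uncalled changes of IL7R (36.3 and 23.6 FPKM against 13.2 and 8.61), KIAA1644 (69.0 and 50.5 against 18.2 and 12.6) and CLU (26.5 and 65.2 against 6.83 and 17.0) were −1.42, −1.93 and −1.89.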

How the results depend on the processing

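Against 19 calls (10 higher, 9 lower), 10 (6 and 4) were made without a filter on the mean FPKM, 1314 (991 and 323) with zeros included, 27 (16 higher) without a trend, 68 (33 and 35) with all 8 libraries in the fit, and 0 to 129 (0 to 100 higher, 0 to 48 lower) with 1 library left out, where unadjusted p below 0.05 numbered 1253 to 2728. The counts were 16 to 28 under the other alternatives without a block. Higher calls made up 62.5% with a pseudocount of 5 and 60.9% with centred libraries, against 52.6%. The column letters do not pair the libraries by the labels. The correlation of A minus B between the groups was 0.206 across 15917 rows, and a replicate block by letter gave 341 calls (180 and 161), EGFR and VIM among them (adjusted p = 0.0234 and 0.0263). Differences between the lines numbered 2501 (1297 and 1204) with zeros included, 173 with that block, 169 to 232 under the other settings, and 12 to 1193 (10 to 651 higher, 2 to 542 lower) with 1 library left out, against 212. Signs turned, with none called, for AXL (−0.59 without DMSO A to 0.23 without DMSO B, and 0.17 without resistant B), ERBB3 (−0.50 without DMSO B to 0.90 without DMSO A) and CDH1 (−0.081 without resistant A to 0.59 without resistant B). The causes were not tested, beyond the fewer samples or other rows of each fit. List medians moved by more than the spread over library pairings 31 times, in 20 lists, and window medians 10 times, in 4 windows, while some settings (variance model, block) cannot move a median. The number of libraries and the unknown depth limit precision.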

Other observations

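Rows listed at 0 throughout 1 group entered no comparison. In HCC827, 1250 rows were at 0 in both DMSO libraries and above 0 in both resistant libraries, and 443 the reverse. By level, the single-name rows at 0 in DMSO were led by AP003035.1 (36930.1 and 9315 FPKM in the resistant libraries), the iron storage gene FTH1 (11668 and 10856), the actin capping gene CAPZA2 (7718 and 6161), PBEF1 (6118 and 4058), RP11-40C6.2 (4010.3 and 4899) and the growth factor gene MDK (3858 and 4707). At 0 in the resistant libraries were AC006368.1 (26706 and 2754 in DMSO), the actin-binding gene PFN1 (7553 and 7748), the peroxidase gene PRDX1 (6555 and 8654), the tubulin gene TUBB (3061 and 3892), MDH2 (2452 and 2097) and EIF6 (2012 and 2514). Several of these are used by every growing cell, so a 0 is given as listed and with no fold.

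Members of the gene lists stood among such rows too. At 0 in both DMSO libraries were the joined row of PDGFRA (667 and 670 FPKM in the resistant libraries), IGF2R (616 and 262), the ligand gene EPGN (271 and 377), the urokinase gene PLAU (2358 and 3427), the immunoproteasome gene PSMB8 (648 and 1786) and the laminin gene LAMA5 (1163 and 1411). At 0 in both resistant libraries were the tight junction gene OCLN (280 and 307 in DMSO), WNT7B (171 and 188) and the joined row of BUB1B (247 and 223). The values of these 9 were known when they were picked.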
